A study of Homo sapiens with 12 samples.

Results

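sgRAC1 clone 2 is 1 clone of DU145, an established human prostate cancer cell line, grown from a single cell after transfection with Cas9 and the guide sgRAC1_2. Its 2 RNA-seq libraries, of 12 in the series, were set against the 6 libraries of the RAC1-positive lines. The clone was chosen by its label and its guide, and 17488 of the 56832 genes in the deposited table had a mean of at least 1 TPM in the clone or in the RAC1-positive lines and were tested.

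The other knockout lines were sgRAC1 clone 3, made with the same guide, and sgRAC1 clone 1, made with the guide sgRAC1_1. The RAC1-positive lines were the parental DU145 line and sgNTC clones 1 and 2, which received a non-targeting guide and are wild type for RAC1 per the labels. Each of the 6 lines had 2 libraries, and the replicate number is the batch number in the labels. All lines grew in RPMI with 10% fetal bovine serum, with no other agent named. The knockout clones and the sgNTC lines were single-cell clones, whereas the parental line is given no guide. The p-values rest on how far the libraries of a line lay apart and say nothing of how far clones differ. The design text sets RAC1 knockout clones against RAC1-positive ones.

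RAC1 is a small GTPase that switches between a GDP-bound and a GTP-bound form. Exchange factors such as those of the VAV family load it with GTP downstream of growth factor receptors, and the active form turns on the WAVE and Arp2/3 complexes, which build branched actin at the leading edge of a moving cell. In epithelial cancer cells it is studied for its part in migration, adhesion and junction assembly.

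RAC1 transcript was present in the knockout clone at a reduced level. Its TPM was 59.2 and 54.2 in sgRAC1 clone 2, 47.5 and 36.5 in clone 1 and 39.6 and 40.3 in clone 3, against a range of 149 to 202 in the RAC1-positive libraries with a median of 170. No knockout library overlapped a RAC1-positive one, and clone 2 had the highest values of the knockout clones. Its mean was 33.0% of the RAC1-positive mean, a difference of -1.58 ± 0.16 on the log2(TPM + 1) scale (SE, 95% interval -1.93 to -1.22, limma adjusted p = 0.00915). A two-sided exact permutation test of 2 libraries against 6, which doubles the smaller tail over 28 splits, gave p = 0.0714, the smallest this form can give, so that it could not have passed 0.05. The call was lost with upper quartile scaling, where limma's adjusted p was 0.192, and with 1 value per line (0.163 with clone 2 and the RAC1-positive lines, 0.0746 with all 6 lines). Against the other knockout clones the clone 2 level differed by 0.46 (95% interval 0.09 to 0.84, limma adjusted p of 1). TPM measures transcript and says nothing of the protein, and in a bulk culture fewer cells with a transcript and less transcript per cell cannot be told apart.

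Depth and identity were as follows. Reads recovered from the steps of the TPM values came to 4504540 and 4207429 in clone 2, 3946746 to 6005007 in the other knockout libraries and 545153 to 10715566 in the RAC1-positive ones. The shallowest was replicate 1 of sgNTC clone 2, which stood apart with a median correlation of 0.876 to the other libraries. The 5 epithelial markers (KRT8, KRT18, KRT19, EPCAM and CDH1) summed to 372 to 470 TPM in clone 2, against 273 to 802 TPM in the RAC1-positive libraries. The basal list summed to 0 in clone 2 and to at most 0.0808 TPM in the RAC1-positive libraries. Clone 2 had at most 0.353 TPM over the stromal list, at most 1.29 TPM over the leukocyte list and at most 0.369 TPM over the endothelial list, against at most 0.751, 1.08 and 0.173 TPM in the RAC1-positive libraries. The neuroendocrine list summed to 10.0 to 10.5 TPM in clone 2 and to 3.90 to 9.34 TPM in the RAC1-positive libraries, nearly all of it the enolase ENO2. In the other knockout clones ENO2 was at a similar level, 9.70 and 9.68 TPM in clone 1 and 11.5 and 8.62 TPM in clone 3. The part of these lists in the results was not tested.

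Against the RAC1-positive lines, 29 genes rose in sgRAC1 clone 2, which is 0.166% of the genes tested, and 5 fell, which is 0.0286% (limma on log2(TPM + 1) with Benjamini-Hochberg adjustment at 0.05). Both clone 2 libraries lay outside the range of the 6 RAC1-positive libraries for all 34. Over all tested genes, both clone 2 libraries lay above all 6 for 6.74% and below all 6 for 3.44%. Of the 34, 28 are protein-coding. With the batch as a replicate block, 21 genes were called, 19 higher and 2 lower. Fitting limma to recovered reads, an analysis chosen after the data were seen, called 151 genes (0.925% of 16322), 127 higher and 24 lower, including 30 of the 34. The 4 genes not among those 30 are the short RNAs described further on. The count rests on the pooled libraries: with 1 value per line, or with only the 8 libraries compared, no gene passed, and single libraries left out moved the count between 12 and 200. Without sgNTC clone 1 replicate 1 it was 12, and without sgNTC clone 2 replicate 2 it was 200.

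Most single calls also did not hold when 1 library was left out. Without at least 1 single library, 23 of the 34 genes lost their call. Without the shallow sgNTC clone 2 replicate 1 these were CLIC2, HIST2H2AA3, HIST2H2AA4, IFIT2, IFIT3, MATN2, CDH3, DNAJC15 and C9orf84, 9 in number, with limma adjusted p-values of 0.0550 to 0.0700. With the replicate block 13 genes lost theirs, with limma adjusted p-values of 0.0530 to 0.0763: LCN2, IFI16, CLIC2, HIST2H2AA3, HIST2H2AA4, IFIT1, IFIT2, MATN2, CDH3, DNAJC15, FMR1, NCOA7 and C9orf84. The calls lost to the most single libraries were those of C9orf84 and IFIT3, each lost without any 1 of 11, and of CDH3, CTD-2021J15.2, DNAJC15, FMR1 and NCOA7, each lost without any 1 of 10.

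**Figure D1:**
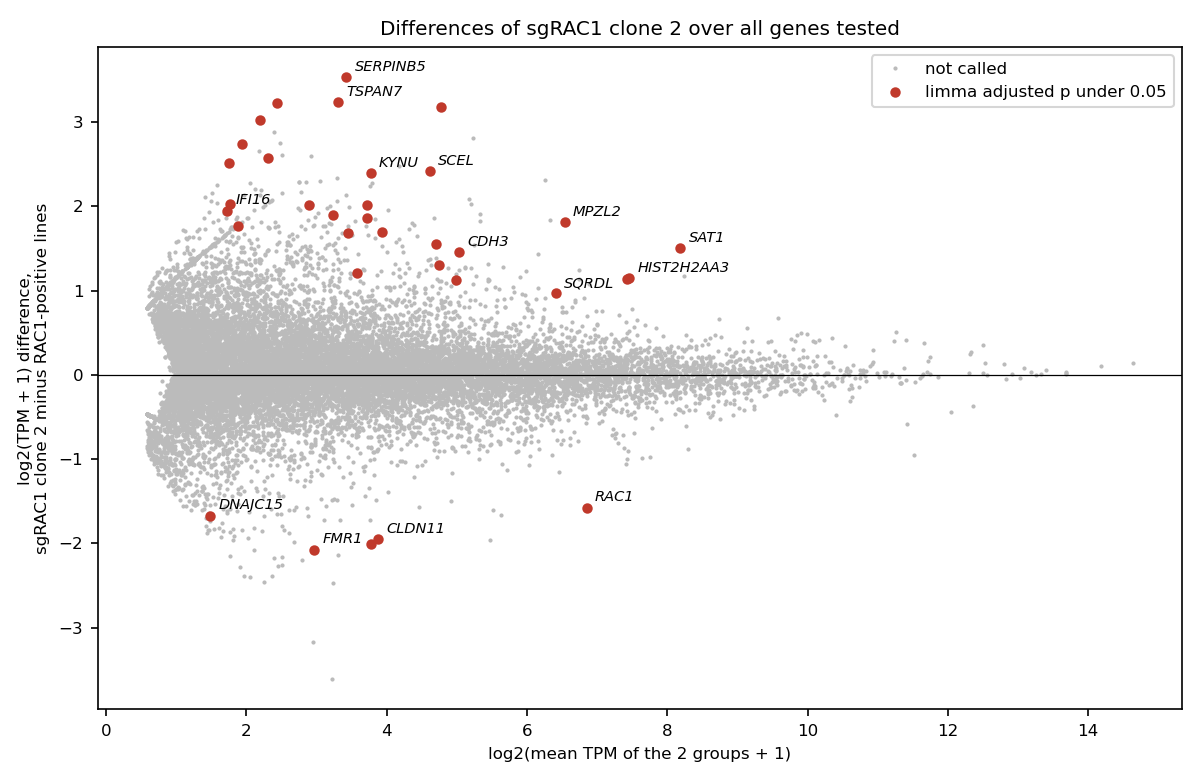
Each point is 1 of the 17488 genes tested, with its mean TPM over sgRAC1 clone 2 and the RAC1-positive lines on a log2 axis and its log2(TPM + 1) difference, clone 2 minus RAC1-positive, on the other. The 34 genes that passed limma's adjusted threshold are in red, 29 of them above the zero line and 5 below it.

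The largest change was in SERPINB5, which encodes maspin, a serpin made by normal epithelium. It stood at 18.9 and 18.3 TPM in clone 2, at 1.27 and 2.28 TPM in clone 1 and at 30.5 and 36.0 TPM in clone 3, against 0.132 to 2.15 TPM in the RAC1-positive libraries (median 0.563). Clones 2 and 3, which share a guide, were above every RAC1-positive library, while clone 1 overlapped them. The difference of clone 2 from the RAC1-positive lines was 3.53 ± 0.33 on the log2(TPM + 1) scale (limma adjusted p = 0.00585). On recovered reads clone 2 differed from clone 1 by 3.38 on the log2 scale (limma adjusted p = 0.000969), and on TPM that difference, 2.85, had a limma adjusted p of 0.112. SERPINA1, the secreted inhibitor alpha-1 antitrypsin, rose as well, at 36.9 and 37.5 TPM in clone 2 and 8.35 to 21.97 TPM in the RAC1-positive libraries (difference 1.56 ± 0.18, limma adjusted p = 0.0174, lost without any 1 of 4 libraries). These 2 were the only serpins called of 12 tested, and the list's median difference was 0.39 beside 0.04 over all genes.

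Of the genes that rose, TSPAN7, MPZL2 and CDH3 encode cell surface proteins and SCEL a protein of the cornified envelope. TSPAN7, a membrane protein of the tetraspanin family, had 18.04 and 15.4 TPM in clone 2, 14.2 and 16.8 TPM in clone 1 and 23.5 and 22.3 TPM in clone 3, against 0 to 1.59 TPM in the RAC1-positive libraries. All 3 knockout clones were thus far above every RAC1-positive library, and clone 2 lay between the other 2 in mean level; its difference was 3.24 ± 0.22 (limma adjusted p = 0.00189). SCEL, sciellin of the cornified envelope, was at 44.2 and 33.5 TPM in clone 2, 23.5 to 39.0 TPM in the other knockout clones and 1.22 to 14.3 TPM in the RAC1-positive libraries (2.42 ± 0.21, limma adjusted p = 0.0055). MPZL2, an immunoglobulin-type adhesion protein of epithelia, was at 138 and 147 TPM in clone 2, 133 and 157 TPM in clone 1 and 265 and 300 TPM in clone 3, against 24.3 to 58.3 TPM in the RAC1-positive libraries. The MPZL2 difference from the RAC1-positive lines was 1.81 ± 0.20 (limma adjusted p = 0.0135, and 0.0589 without parental replicate 1), and on recovered reads clone 2 lay 0.99 below clone 3 on the log2 scale (limma adjusted p = 0.0345).

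CDH3, P-cadherin of adherens junctions, was at 40.6 and 52.0 TPM in clone 2, 45.3 and 56.9 TPM in clone 1 and 84.5 and 98.995 TPM in clone 3, and at 8.98 to 24.6 TPM in the RAC1-positive libraries. Its difference of 1.46 ± 0.21 had a limma adjusted p of 0.0427. The call was lost without any 1 of 10 libraries, with an adjusted p of up to 0.148, and also with the replicate block (0.0530), median-of-ratios scaling (0.0509) and upper quartile scaling (0.604). CDH3 was the only member called of 27 epithelial junction genes tested, a list with 19 members higher, 8 lower and a median of 0.38. E-cadherin (CDH1), the defining cadherin of epithelium, did not pass: it was at 7.04 and 10.6 TPM in clone 2, 12.3 to 21.0 TPM in the other knockout clones and 1.99 to 6.25 TPM in the RAC1-positive libraries, with no overlap (difference 1.01, limma adjusted p = 0.356). The epithelial adhesion molecule EPCAM was at 45.9 and 39.5 TPM in clone 2, 27.03 to 51.2 TPM in the other knockout clones and 21.3 to 30.8 TPM in the RAC1-positive libraries, also with no overlap of clone 2 and RAC1-positive values and without passing (0.80, limma adjusted p = 0.384). The 3 keratins among the epithelial markers did not separate clone 2 from the RAC1-positive libraries. KRT18 was at 64.6 and 139 TPM in clone 2 and 62.0 to 434 TPM in the RAC1-positive libraries (-1.06, limma adjusted p = 0.701), KRT8 at 174 and 188 TPM in clone 2 and 144 to 239 TPM in the RAC1-positive libraries (-0.13, limma adjusted p = 0.849), and KRT19 at 80.9 and 92.0 TPM in clone 2 and 39.4 to 102 TPM in the RAC1-positive libraries (0.28, limma adjusted p = 0.761). CLIC2, a chloride intracellular channel protein, rose to 13.3 and 14.1 TPM in clone 2, against 1.80 to 4.93 TPM in the RAC1-positive libraries (1.89 ± 0.27, limma adjusted p = 0.0413, lost without any 1 of 9 libraries). In CLIC2 clone 3 was higher still, at 24.2 and 20.3 TPM, while clone 1 had 2.57 and 5.42 TPM and its range met that of the RAC1-positive libraries.

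**Figure D2:**
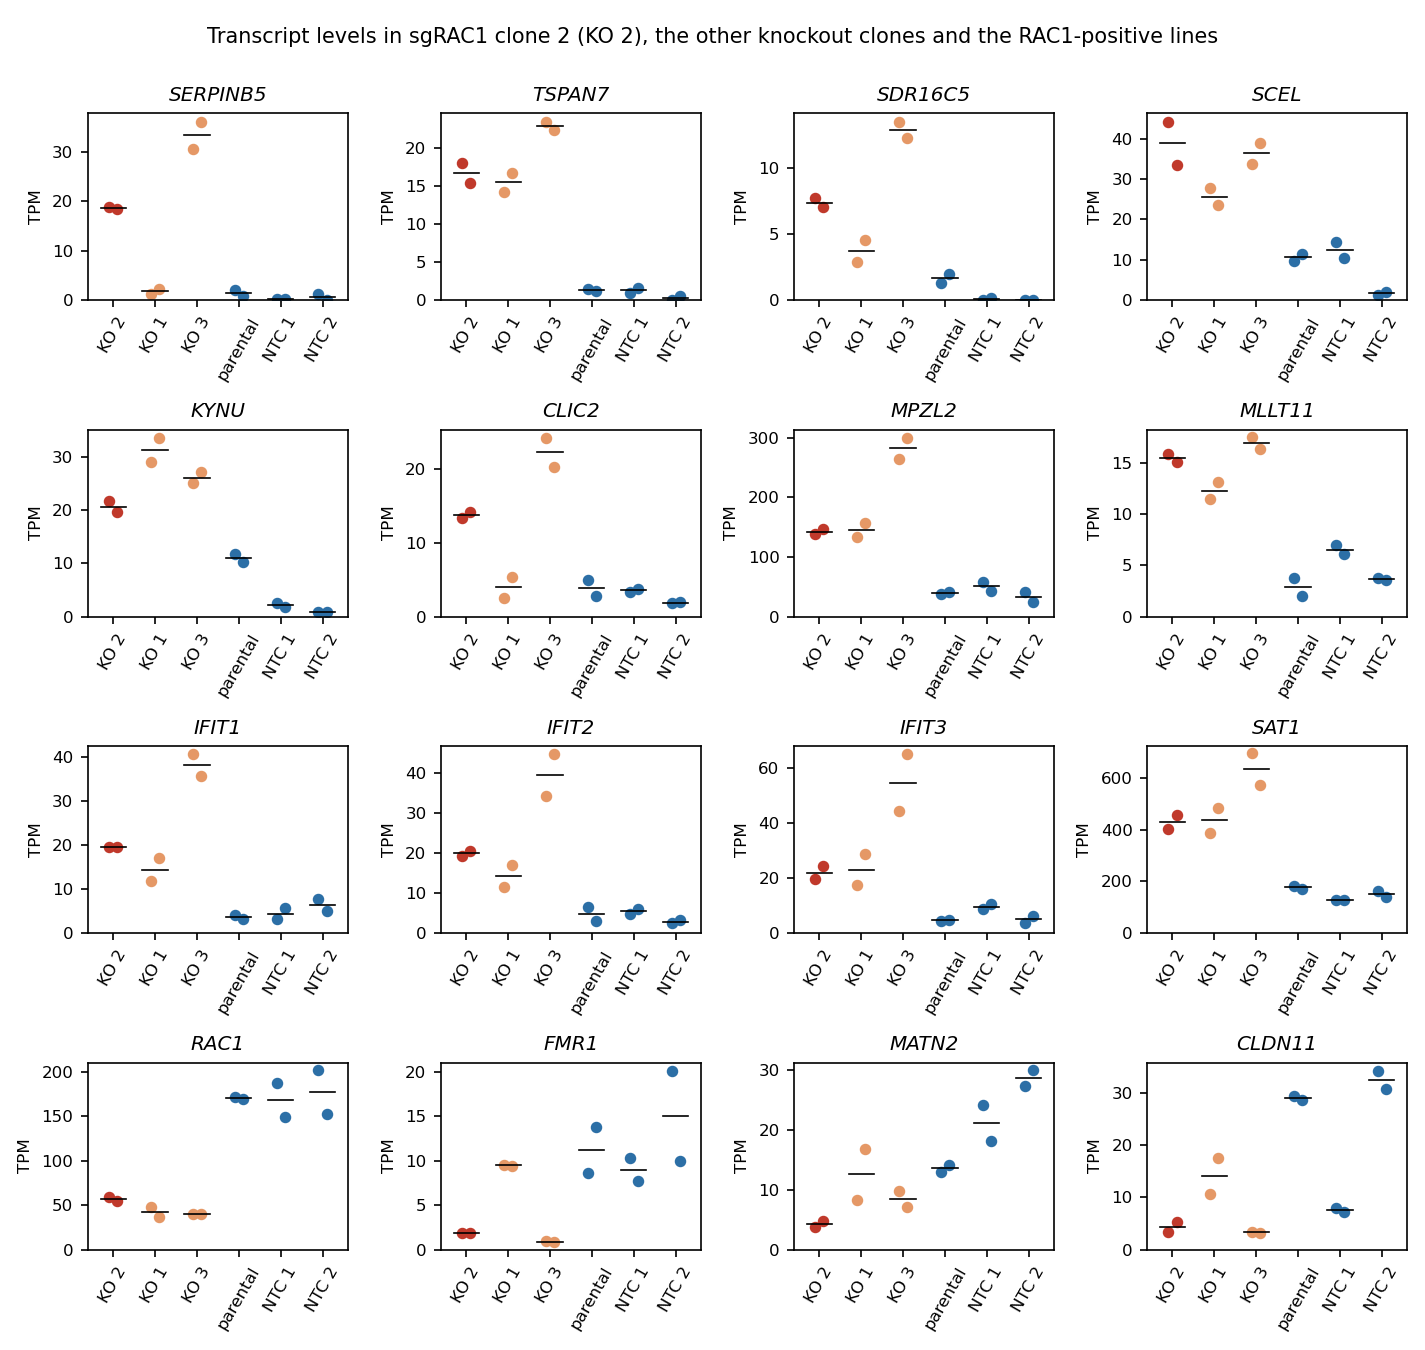
TPM of 16 genes in each library, with 1 panel per gene, 1 point per library and a bar at the mean of the 2 libraries of a line; sgRAC1 clone 2 (KO 2, red) stands left of the other knockout clones (orange) and the RAC1-positive lines (blue). SERPINB5 and CLIC2 are high and FMR1 and CLDN11 low in clones 2 and 3, whereas TSPAN7, SCEL, KYNU and SAT1 are high in all 3 knockout clones.

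Of the genes that rose, SAT1, KYNU, SDR16C5, SQRDL and ACOX2 encode enzymes of small-molecule metabolism. SAT1, the acetyltransferase that starts polyamine breakdown, was at 403 and 456 TPM in clone 2 and at 387 to 694 TPM in the other knockout clones, against 128 to 183 TPM in the RAC1-positive libraries (1.51 ± 0.13, limma adjusted p = 0.0055). It was the only one called of 13 polyamine genes tested, whose median difference was 0.09. KYNU, kynureninase of tryptophan breakdown, was at 21.7 and 19.6 TPM in clone 2, 25.1 to 33.5 TPM in the other knockout clones and 0.872 to 11.8 TPM in the RAC1-positive libraries. The RAC1-positive lines differed among themselves here, with 11.8 and 10.2 TPM in the parental line and at most 2.50 TPM in the sgNTC clones, and the clone 2 difference was 2.39 ± 0.17 (limma adjusted p = 0.00189). SDR16C5, a short-chain dehydrogenase that oxidises retinol, was at 7.68 and 7.04 TPM in clone 2, 2.92 and 4.56 TPM in clone 1 and 13.5 and 12.3 TPM in clone 3. In the RAC1-positive libraries SDR16C5 reached at most 1.97 TPM and was listed at 0 in 3 of them (2.57 ± 0.23, limma adjusted p = 0.0055). SQRDL, the mitochondrial enzyme that oxidises sulfide, was at 110 and 113 TPM in clone 2 and 44.5 to 69.4 TPM in the RAC1-positive libraries (0.97 ± 0.10, limma adjusted p = 0.00942). On recovered reads, clone 2 minus the mean of the other knockout clones was 0.07 for SQRDL on the log2 scale.

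ACOX2, the peroxisomal oxidase of branched fatty acids and bile acid intermediates, was the protein-coding gene that rose in the clone and lay above all 10 other libraries. It had 35.3 and 38.2 TPM in clone 2, 24.3 to 30.8 TPM in the other knockout clones and 9.28 to 18.6 TPM in the RAC1-positive libraries. The difference was 1.30 ± 0.15 from the RAC1-positive lines (limma adjusted p = 0.0138) and 0.43 from the other knockout clones (95% interval 0.07 to 0.78, limma adjusted p of 1), where it did not pass. Without sgNTC clone 1 replicate 1 or without parental replicate 2 the call against the RAC1-positive lines was also lost, with an adjusted p of up to 0.0609.

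The remaining protein-coding genes that rose were of mixed function. LCN2, a secreted protein that binds bacterial siderophores, was at 5.02 and 3.80 TPM in clone 2 and at most 1.28 TPM in the RAC1-positive libraries (2.03 ± 0.25, limma adjusted p = 0.0247). MLLT11, known as a fusion partner in leukaemia, was at 15.9 and 15.1 TPM in clone 2 and 2.06 to 6.94 TPM in the RAC1-positive libraries (1.69 ± 0.19, limma adjusted p = 0.0155). NCOA7, a nuclear receptor coactivator, had 41.5 and 41.9 TPM in clone 2 and 11.4 to 34.005 TPM in the RAC1-positive libraries (1.13 ± 0.15, limma adjusted p = 0.0338). None of these RAC1-positive ranges reached a clone 2 value. LCN2 was at 5.76 and 4.499 TPM in clone 3 but at 1.43 and 1.87 TPM in clone 1, and clone 2 minus clone 1 was 1.03 (95% interval 0.32 to 1.73, limma adjusted p of 1). Clone 2 minus clone 1 was 0.31 for MLLT11 and -0.47 for NCOA7, and clone 2 minus clone 3 was -0.12 for MLLT11 and -0.04 for NCOA7. The calls against the RAC1-positive lines were lost without any 1 of 7 libraries for LCN2, 5 for MLLT11 and 10 for NCOA7. C9orf84 stood at 16.1 and 15.0 TPM in clone 2 and at 5.35 to 7.68 TPM in the RAC1-positive libraries (1.21 ± 0.17, limma adjusted p = 0.0427, lost without any 1 of 11 libraries). On recovered reads, clone 2 minus the mean of the other knockout clones was -0.10 for C9orf84 on the log2 scale.

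RSPO3, a secreted protein that amplifies Wnt signalling, separated the knockout clones from each other. It was at 3.78 and 5.54 TPM in clone 2, 19.9 and 23.0 TPM in clone 1 and 0.386 and 0.603 TPM in clone 3, against 0 to 1.22 TPM in the RAC1-positive libraries. Clone 3 overlapped the RAC1-positive lines, and clone 2 lay between it and clone 1. The clone 2 difference from the RAC1-positive lines was 1.76 ± 0.25 (limma adjusted p = 0.0422, lost without any 1 of 9 libraries), and on recovered reads clone 2 lay 2.22 below clone 1 on the log2 scale (limma adjusted p = 0.00115). HIST2H2AA3, a replication-dependent histone H2A gene, rose to 257 and 222 TPM in clone 2, against 79.0 to 140 TPM in the RAC1-positive libraries, and was higher in clone 1 (518 and 579 TPM) and clone 3 (493 and 338 TPM). Its difference from the RAC1-positive lines was 1.15 ± 0.16 (limma adjusted p = 0.0339, lost without any 1 of 9 libraries and with median-of-ratios scaling). The near-identical HIST2H2AA4 gave almost the same values, so the reads of this pair cannot be assigned to either with certainty.

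Interferon-stimulated genes are switched on by the factor ISGF3 at a DNA element of paired GAAA repeats, and IFIT1, IFIT2 and IFIT3 encode neighbouring antiviral proteins that bind foreign RNA or each other. These 3 were the members called among 29 tested of 50 listed interferon-stimulated genes. Promoters of IFIT1 and IFIT3 are printed to show the element in the genes that moved, from RefSeq on GRCh38.p14, with 250 bases before the start and 50 after it. Capitals mark matches to GAAA, any 2 bases and GAAA again, which on the other strand reads TTTC, any 2 bases and TTTC; both genes are on the plus strand and all marked matches are on the minus strand. IFIT1 is at chr10:89392373-89392672 and IFIT3 at chr10:89327747-89328046, each with 2 matches that do not overlap. A second IFIT3 promoter, at chr10:89332279-89332578, also held 2 matches and is not printed. For IFIT2 no promoter sequence was available.
IFIT1: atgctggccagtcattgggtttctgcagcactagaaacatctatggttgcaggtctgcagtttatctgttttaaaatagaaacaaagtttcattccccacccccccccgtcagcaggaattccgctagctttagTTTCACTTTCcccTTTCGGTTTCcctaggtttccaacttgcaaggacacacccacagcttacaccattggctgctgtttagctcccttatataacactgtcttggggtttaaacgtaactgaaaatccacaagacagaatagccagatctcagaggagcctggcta
IFIT3: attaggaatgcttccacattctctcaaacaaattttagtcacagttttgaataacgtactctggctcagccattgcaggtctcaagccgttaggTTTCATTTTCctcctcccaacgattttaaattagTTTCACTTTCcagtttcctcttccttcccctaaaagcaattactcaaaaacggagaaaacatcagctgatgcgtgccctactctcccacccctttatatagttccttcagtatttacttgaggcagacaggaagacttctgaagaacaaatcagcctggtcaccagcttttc

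The motif was found on either strand in 4.38% of the 27305 genes with a promoter window, and in 3.57% of all 35116 windows of this length. It was in 5 of the 16 called genes that had a window, of 34 called (IFIT1, IFIT3, FMR1, NCOA7 and RSPO3), and in 26 of the 38 interferon-stimulated genes that had one. FMR1 holds the motif and fell, and a match describes letters in the window only.

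The 3 IFIT genes rose in clone 2, with means below those of clone 3. IFIT1 was at 19.5 and 19.6 TPM in clone 2, 11.8 and 17.0 TPM in clone 1 and 40.7 and 35.6 TPM in clone 3, against 3.13 to 7.76 TPM in the RAC1-positive libraries (1.87 ± 0.25, limma adjusted p = 0.0338). IFIT2 was at 19.3 and 20.4 TPM in clone 2, 11.5 and 17.0 TPM in clone 1 and 34.1 and 44.5 TPM in clone 3, against 2.49 to 6.62 TPM in the RAC1-positive libraries (2.01 ± 0.26, limma adjusted p = 0.0315). IFIT3 was at 19.7 and 24.4 TPM in clone 2, 17.6 and 28.6 TPM in clone 1 and 44.4 and 65.0 TPM in clone 3, against 3.87 to 10.7 TPM in the RAC1-positive libraries (1.69 ± 0.25, limma adjusted p = 0.0482). In each of the 3 genes no knockout library overlapped a RAC1-positive one and clone 3 was highest. Clone 2 minus clone 1 was 0.44 for IFIT1, 0.48 for IFIT2 and -0.03 for IFIT3, each with a limma adjusted p of 1. The clone 2 minus clone 3 differences were -0.93 for IFIT1, -0.94 for IFIT2 and -1.25 for IFIT3, with unadjusted 95% intervals that lay below 0 and a limma adjusted p of 1 in each. Like most of the 34, these calls did not hold when 1 library was left out. IFIT1 and IFIT2 lost theirs without any 1 of 9 libraries and IFIT3 without any 1 of 11. Those libraries included both of clone 1 and both of clone 3, which enter the fit but not the difference. Without 1 library or line the differences stayed at 1.73 to 2.05 for IFIT1, 1.80 to 2.17 for IFIT2 and 1.54 to 1.98 for IFIT3.

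Over the interferon list, 26 of 29 tested members were higher in clone 2 than in the RAC1-positive lines and the median difference was 0.54, beside 0.04 over all genes. The same list had medians of 0.75 in clone 1 and 1.06 in clone 3 against the same RAC1-positive libraries, and a median of -0.23 for clone 2 minus the other knockout clones. OASL, an oligoadenylate synthetase relative, was at 10.3 and 11.6 TPM in clone 2 and 1.45 to 4.90 TPM in the RAC1-positive libraries and did not pass (1.77, limma adjusted p = 0.0932). DDX58, which encodes the RNA sensor RIG-I, was at 12.36 and 11.997 TPM in clone 2 and 2.76 to 5.81 TPM in the RAC1-positive libraries (1.24, limma adjusted p = 0.111), and the ubiquitin-like ISG15 was at 101 and 126 TPM in clone 2 and 48.9 to 90.5 TPM in the RAC1-positive libraries (0.75, limma adjusted p = 0.417). IFI16, a sensor of nuclear DNA outside that list, rose to 4.33 and 4.13 TPM in clone 2, against 0 to 1.02 TPM in the RAC1-positive libraries (1.95 ± 0.26, limma adjusted p = 0.0338, lost without any 1 of 8 libraries). IFI16 was at 4.75 and 6.34 TPM in clone 3 and at 0.172 and 0.161 TPM in clone 1, and on recovered reads clone 2 lay 4.35 above clone 1 on the log2 scale (limma adjusted p = 0.0126).

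**Figure D3:**
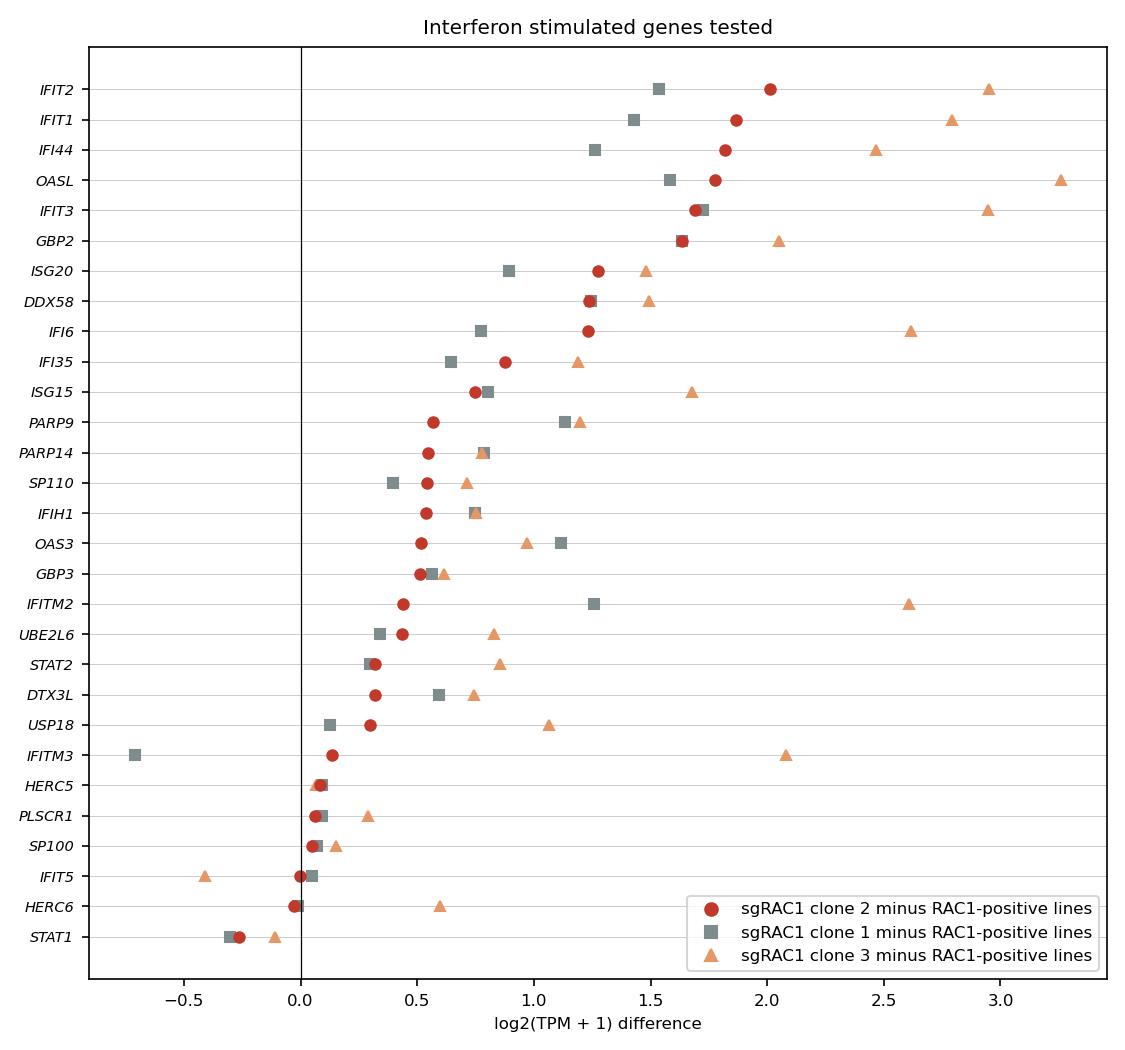
Log2(TPM + 1) differences of the 29 interferon-stimulated genes tested, 1 row per gene, for sgRAC1 clone 2 (red circles), clone 1 (grey squares) and clone 3 (orange triangles), each minus the same RAC1-positive lines. Clone 2 lies to the right of zero for 26 genes, with a median of 0.54, and the medians of clones 1 and 3 are 0.75 and 1.06.

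Antigen presentation by MHC class I, whose genes load peptides for display to T cells, had no called member on TPM among 20 tested. Of these, 17 were higher and the median was 0.36. PSMB8, a catalytic subunit of the immunoproteasome, came closest, at 41.4 and 45.1 TPM in clone 2, 44.6 to 83.8 TPM in the other knockout clones and 15.9 to 20.5 TPM in the RAC1-positive libraries (1.20, limma adjusted p = 0.072). HLA-B was at 91.6 and 89.2 TPM in clone 2 and 45.4 to 82.1 TPM in the RAC1-positive libraries (0.66, limma adjusted p = 0.163). Both genes were above all 6 RAC1-positive libraries in both clone 2 libraries. On recovered reads both passed, PSMB8 at 1.21 (limma adjusted p = 0.00741) and HLA-B at 0.67 (limma adjusted p = 0.0188). The list stood lower in clone 2 than in the other knockout clones, with a median of -0.33.

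The 4 genes that fell besides RAC1 were FMR1, MATN2, CLDN11 and DNAJC15. FMR1, which encodes the RNA-binding protein lost in fragile X syndrome, was at 1.86 and 1.91 TPM in clone 2, 9.51 and 9.44 TPM in clone 1 and 0.963 and 0.806 TPM in clone 3, against 7.67 to 20.1 TPM in the RAC1-positive libraries. CLDN11, a claudin of tight junctions, was at 3.37 and 5.37 TPM in clone 2, 10.6 and 17.5 TPM in clone 1 and 3.45 and 3.21 TPM in clone 3, against 7.15 to 34.3 TPM in the RAC1-positive libraries, of which the sgNTC clone 1 libraries were lowest. DNAJC15, a co-chaperone of the mitochondrial inner membrane, was at 0.57 and 0.0755 TPM in clone 2, 7.20 and 6.85 TPM in clone 1 and 0.153 and 0.0596 TPM in clone 3, against 1.71 to 5.09 TPM in the RAC1-positive libraries. In all 3 genes clones 2 and 3 lay below every RAC1-positive library, while clone 1 lay within or above the RAC1-positive range. The clone 2 differences from the RAC1-positive lines were -2.07 ± 0.28 for FMR1 (limma adjusted p = 0.0338), -1.95 ± 0.22 for CLDN11 (limma adjusted p = 0.0138) and -1.67 ± 0.24 for DNAJC15 (limma adjusted p = 0.0427). The calls of FMR1 and DNAJC15 were each lost without any 1 of 10 libraries, with adjusted p-values of up to 0.119 and 0.141, and with the replicate block (0.0591 and 0.0536). The CLDN11 call was lost without either parental library or without sgNTC clone 1 replicate 1, with an adjusted p of up to 0.0626. On recovered reads clone 2 lay below clone 1 by 2.32 for FMR1 (limma adjusted p = 0.00462), 1.69 for CLDN11 (limma adjusted p = 0.0440) and 4.75 for DNAJC15 (limma adjusted p = 0.00113), on the log2 scale, whereas on TPM none of these 3 differences passed.

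MATN2, which encodes matrilin 2 of the extracellular matrix, was the protein-coding gene that fell and lay below all 10 other libraries. It was at 3.72 and 4.82 TPM in clone 2, 8.29 and 16.8 TPM in clone 1 and 9.73 and 7.12 TPM in clone 3, against 12.97 to 29.9 TPM in the RAC1-positive libraries. The difference was -2.01 ± 0.26 from the RAC1-positive lines (limma adjusted p = 0.0296) and -1.07 from the other knockout clones (95% interval -1.69 to -0.44, limma adjusted p of 1, and of 0.565 on recovered reads). The call against the RAC1-positive lines was lost without any 1 of 9 libraries, with an adjusted p of up to 0.119.

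A gene that did not pass on TPM showed a wide spread among the knockout clones. GSTP1, a glutathione transferase that conjugates electrophiles, was at 13.5 and 19.7 TPM in clone 2, 45.8 and 56.1 TPM in clone 1 and 2.25 and 0.502 TPM in clone 3, against 39.7 to 129 TPM in the RAC1-positive libraries. Clones 2 and 3 were below every RAC1-positive library and clone 1 was within their range. Clone 2 minus RAC1-positive was -1.96 ± 0.36 (limma adjusted p = 0.131). On recovered reads GSTP1 passed, at -2.16 (limma adjusted p = 0.00209).

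Set directly against the other 2 knockout clones, 3 genes were higher in clone 2 (0.0172% of those tested) and none was lower, with 513 genes at an unadjusted limma p under 0.05. The level filter used clone 2 and the RAC1-positive lines only. Genes with a mean below 1 TPM in both were thus not tested, whatever their level in clones 1 and 3. With no level filter, 15 genes were higher and 8 lower. The 3 genes called with the filter were MIR3149, RNU6-288P and RNU6ATAC18P, short RNA genes named after their values were seen. MIR3149 was at 6.90 and 7.32 TPM and RNU6-288P at 5.50 and 5.84 TPM in clone 2, which is 1 recovered read in each library, and RNU6ATAC18P at 5.67 and 12.02 TPM, which is 1 and 2 reads. All 3 were at 0 in the other 10 libraries, so they passed the level filter through clone 2 alone. The limma adjusted p was 0.0490 for each. RNA5SP371 had the same form, with 1 read in each clone 2 library and none in the other 10, and was called only against the RAC1-positive lines. With 3 reads as the count that a value of 0 allows, clone 2 and the other lines cannot be told apart in these 4 genes, and none had enough reads for the fit on recovered reads.

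Single-clone contrasts on TPM called no gene, either against clone 1 (0% of those tested, 576 at an unadjusted limma p under 0.05, lowest adjusted p 0.0679) or against clone 3 (0%, 568 and 0.0849). On recovered reads, limma called 29 genes against clone 1 (0.178%), 6 higher and 23 lower, of which 9 were among the 34. It called 2 genes against clone 3 (0.0123%), both lower in clone 2, and 1 against the mean of clones 1 and 3 (0.00613%). Against clone 3 these were MPZL2, given above, and FGB, the beta chain of fibrinogen, at 16.3 and 15.2 TPM in clone 2, 96.9 and 116 TPM in clone 3 and 3.03 and 5.84 TPM in clone 1. FGB in the RAC1-positive libraries was at 11.3 to 45.3 TPM and overlapped clone 2, and on recovered reads clone 2 lay 2.75 below clone 3 on the log2 scale (limma adjusted p = 2.36e-05). BICC1, an RNA-binding protein, was the gene below the mean of clones 1 and 3, at 27.2 and 22.9 TPM in clone 2, 78.4 and 96.5 TPM in clone 1 and 39.3 and 40.1 TPM in clone 3 (-1.24 on recovered reads, limma adjusted p = 0.0354). Its RAC1-positive range of 24.2 to 79.4 TPM also overlapped clone 2. FGB and BICC1 were named after their values were seen.

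Over 9412 genes with at least 5 TPM, the median absolute log2 difference from clone 2 was 0.15 for clone 1 and 0.18 for clone 3. It was 0.19 for the parental line, 0.21 for sgNTC clone 1 and 0.24 for sgNTC clone 2. The last value includes the shallow replicate 1 (545153 recovered reads, correlation of 0.861 with its own replicate). Depth was not matched between the lines.

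Both clone 2 libraries lay above all 10 other libraries for 1.24% of the genes tested and below them for 0.806%. Among protein-coding genes with at least 5 TPM on the higher side these were 63 genes above and 58 below, and their share of that set was not counted. How often the libraries of another line lie beyond all the others was not counted either, so no excess can be read from these numbers. The level filter took no account of clones 1 and 3. Of the genes tested, 1482 reached a mean of 1 TPM in clone 2 only and 1373 in the RAC1-positive lines only. The genes beyond all 10 libraries are given as a description, since that position chose them. The examples were taken by size of difference after the data were seen. CLGN, a chaperone of the endoplasmic reticulum known from sperm development in mice, was at 11.2 and 12.6 TPM in clone 2, 1.75 and 1.78 TPM in clone 1, 6.08 and 9.04 TPM in clone 3 and 1.65 to 6.40 TPM in the RAC1-positive libraries. Its difference from the RAC1-positive lines was 1.53 (limma adjusted p = 0.094), and it was among the genes called on recovered reads, at 1.90 (limma adjusted p = 0.000614). FABP4, the fatty acid carrier of fat cells, was at 10.7 TPM in clone 2 replicate 1 and at 0.87 TPM in replicate 2, and at no more than 0.431 TPM elsewhere, so its place rests on 1 library. PSTPIP2, an actin-binding F-BAR protein, was at 0.834 and 2.36 TPM in clone 2. It was at 2.53 and 3.14 TPM in clone 3, 7.31 and 7.88 TPM in clone 1 and 6.59 to 16.1 TPM in the RAC1-positive libraries. The PSTPIP2 difference was -1.98 (limma adjusted p = 0.106), and on recovered reads it passed, at -2.45 (limma adjusted p = 0.00892). CHMP6, of the ESCRT-III membrane-cutting complex, was at 3.78 and 5.73 TPM in clone 2, against 6.03 to 11.8 TPM in the other knockout clones and 6.54 to 16.5 TPM in the RAC1-positive libraries (-0.99, limma adjusted p = 0.445).

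No relative or effector of RAC1 passed the test. RAC2, the blood-cell form of RAC, was at 5.65 and 5.76 TPM in clone 2, 6.31 to 8.52 TPM in the other knockout clones and 2.02 to 4.33 TPM in the RAC1-positive libraries, with no overlap of clone 2 and RAC1-positive values (0.61 ± 0.20, limma adjusted p = 0.473). RAC3 was below the filter, at 0.75 and 0.795 TPM in clone 2 and at most 0.846 TPM in the RAC1-positive libraries. CDC42, which drives filopodia, was at 177 and 211 TPM in clone 2 and 173 to 269 TPM in the RAC1-positive libraries (-0.16, limma adjusted p = 0.883). RHOG, which acts upstream of RAC1, was at 19.9 and 21.5 TPM in clone 2 and 14.3 to 24.4 TPM in the RAC1-positive libraries (0.06, limma adjusted p = 0.963, with a sign that turned in 4 of the alternatives). No gene passed among 26 Rac effectors and actin-branching genes (14 higher, 12 lower, median 0.09) or 20 Rac exchange factors and regulators (11 higher, 9 lower, median 0.05). ARPC5, an Arp2/3 subunit, was at 232 and 240 TPM in clone 2 and 151 to 212 TPM in the RAC1-positive libraries (0.34, limma adjusted p = 0.561), and the Rac-activated kinase PAK1 at 45.9 and 41.1 TPM in clone 2 and 29.1 to 42.2 TPM in the RAC1-positive libraries (0.30, limma adjusted p = 0.612).

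Of 45 gene lists, 35 had a median above 0 and 31 a median above that of all genes, 0.04, and 9 held a called gene. After the interferon list, the highest medians were those of replication-dependent histones (0.41, 1 called of 30 tested, with 22 higher), S100 proteins (0.41, none called, with 9 of 9 higher) and the serpins. This order was not kept in every setting: without sgNTC clone 2 replicate 1 the serpins (0.50) stood above the interferon list (0.47), followed by epithelial junctions (0.39), histones (0.38) and S100 proteins (0.35), and in batch 1 alone S100 proteins (0.526) stood above the interferon list (0.524). S100A9, a calcium-binding protein of inflamed epithelium, was at 12.9 and 7.37 TPM in clone 2 and 12.6 to 42.5 TPM in the other knockout clones. It was at 0 to 8.86 TPM in the RAC1-positive libraries, where the clone overlapped sgNTC clone 2 replicate 1 (2.29 ± 0.42, limma adjusted p = 0.128). On recovered reads S100A9 passed, at 3.05 (limma adjusted p = 0.0135). The YAP and TAZ target list, read-outs of a mechanical and growth pathway, had the lowest median, -0.29, with 20 of 27 tested members lower and none called. Without sgNTC clone 2 replicate 1 its median was -0.17, and the Notch list, at -0.21, was then the lowest, as it was in batch 1 alone (-0.23, against -0.22 for the YAP and TAZ list). The YAP and TAZ list had medians of -0.23 in clone 1 and -0.14 in clone 3 against the same RAC1-positive libraries. PTPN14, a phosphatase that restrains YAP and is its target, was at 16.8 and 16.5 TPM in clone 2. It was at 19.3 to 27.8 TPM in the RAC1-positive libraries, with no overlap (-0.49, limma adjusted p = 0.516). MYOF, another listed target, went the other way, at 94.2 and 83.1 TPM in clone 2 against a RAC1-positive mean of 57.9 TPM. In MYOF both clone 2 libraries lay above every RAC1-positive one (0.63, limma adjusted p = 0.471). The histone list stood 0.58 lower in clone 2 than in the other knockout clones (22 of 30 members lower).

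**Figure D4:**
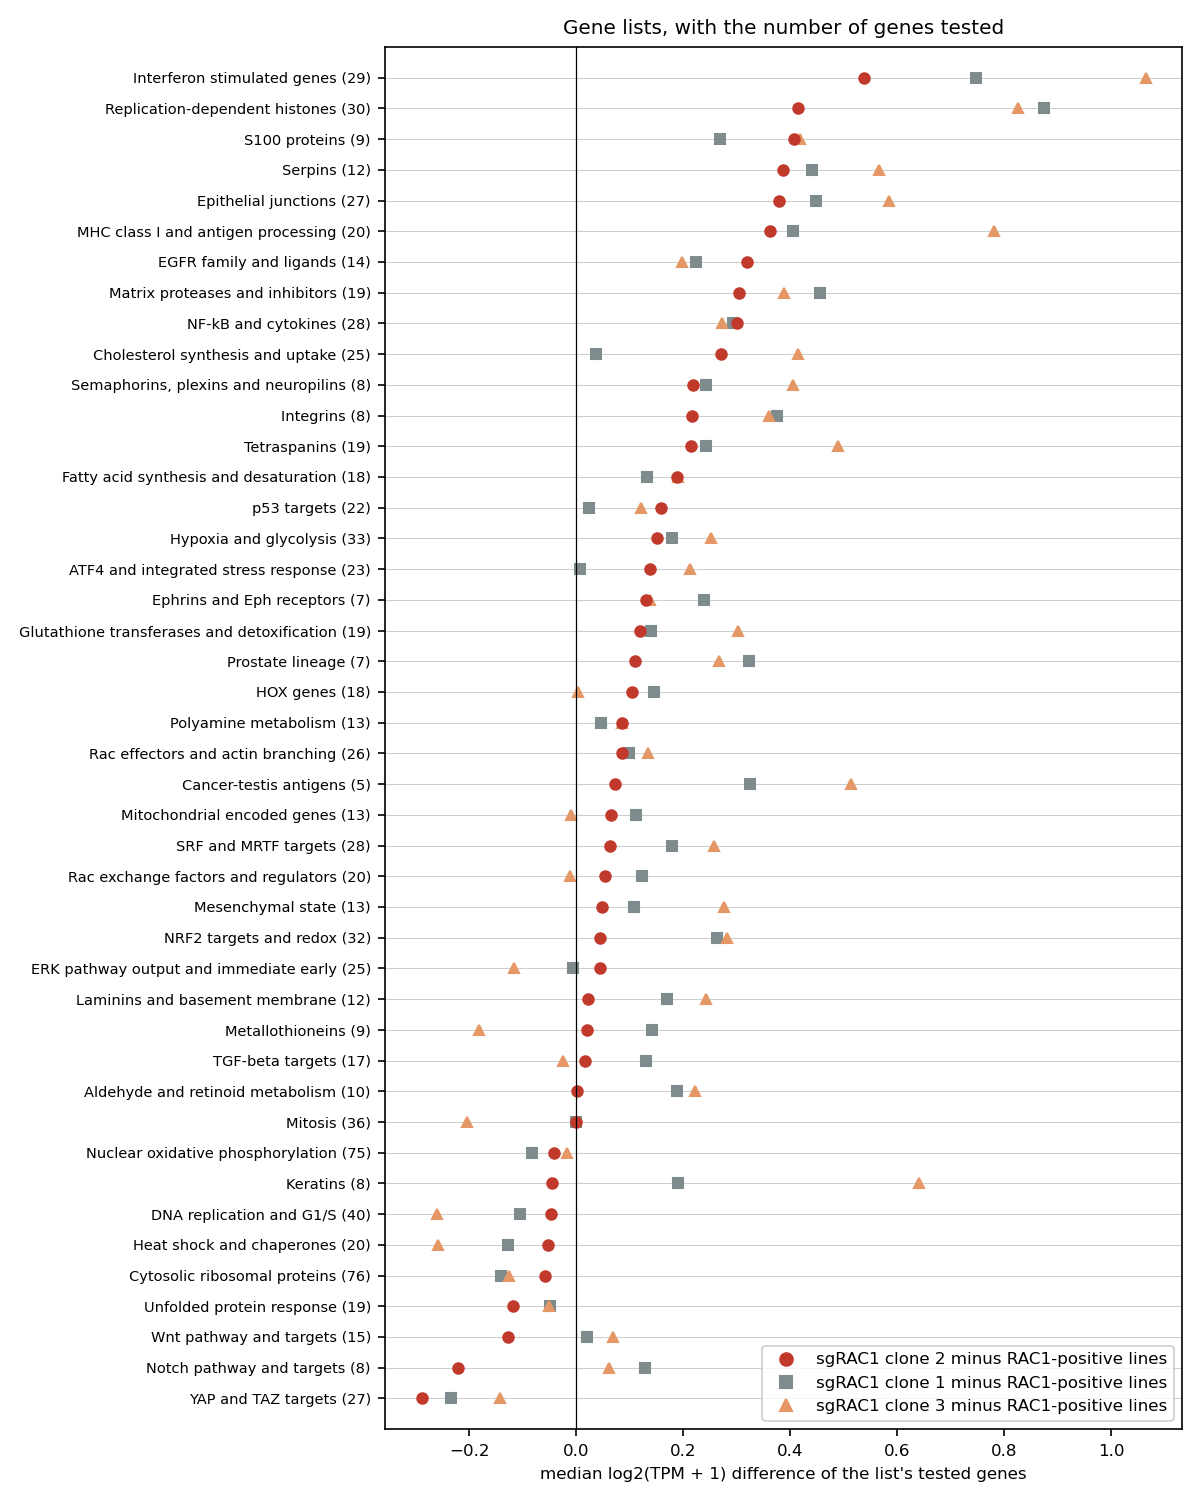
Median log2(TPM + 1) difference from the RAC1-positive lines over the tested genes of each list shown, with the number of genes tested beside its name, for sgRAC1 clone 2 (red circles), clone 1 (grey squares) and clone 3 (orange triangles). For clone 2 the medians run from 0.54 for interferon-stimulated genes to -0.29 for YAP and TAZ targets.

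Along the genome, chromosome 9 had the lowest median in clone 2. Over 526 tested genes with a position on it the median difference from the RAC1-positive lines was -0.21, whereas the other chromosomes ran from -0.06 to 0.10. The genes were taken in windows of 20 tested genes, and the lower values began at the ninth window of 26. From there to the end of the long arm (18 windows, 366 genes, chr9:65668805-138259698 on GRCh38) the median was -0.27, and 81.7% of the genes were lower. In the first 8 windows it was 0.06. Of these 366 genes, 95 (26%) lay below all 6 RAC1-positive libraries in both clone 2 libraries, beside 3.44% of all genes tested. Of the 18 windows in the genome with a median below -0.2, 15 were on chromosome 9. The stretch was outlined after the windows were seen and was given no test.

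The same stretch had a median of -0.25 in clone 3 and of 0.02 in clone 1 against the same RAC1-positive libraries. Centred on each library's own median, its values were -0.31 and -0.32 in clone 2, -0.30 and -0.25 in clone 3, 0.00 and 0.02 in clone 1 and -0.10 to 0.16 in the RAC1-positive libraries. Clones 2 and 3 were thus below all RAC1-positive libraries in both replicates and clone 1 was within their range. CKS2, a subunit of cell cycle kinases on this chromosome, had 2160.3 and 2231 TPM in clone 2 and 2566 to 3645 TPM in the RAC1-positive libraries (-0.58, limma adjusted p = 0.131). RPL7A, a ribosomal protein, was at 529 and 503 TPM in clone 2 and 614 to 738 TPM in the RAC1-positive libraries (-0.41, limma adjusted p = 0.194). SEC61B, of the protein channel of the endoplasmic reticulum, was at 273 and 268 TPM in clone 2 and 342 to 398 TPM in the RAC1-positive libraries (-0.42, limma adjusted p = 0.194). These 3 did not overlap between clone 2 and the RAC1-positive lines and none passed, while the called genes on chromosome 9 were LCN2 and C9orf84, which rose.

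The first 40 tested genes of chromosome 7, which include RAC1 (chr7:497258-6608726), had a median of -0.35 in clone 2, -0.48 in clone 1 and -0.40 in clone 3, against 0.01 for the rest of the chromosome in clone 2. Of them, 15 (37.5%) lay below all 6 RAC1-positive libraries in both clone 2 libraries, beside 3.44% of all genes. Like the stretch on chromosome 9, this one was outlined after the windows were seen and was given no test. RNF216, a ubiquitin ligase, averaged 13.7 TPM in clone 2 and 24.7 TPM in the RAC1-positive lines (-0.78, limma adjusted p = 0.139). The nuclear envelope protein SUN1 averaged 15.2 TPM in clone 2 and 24.5 TPM in the RAC1-positive lines (-0.72, limma adjusted p = 0.561), and beta-actin, ACTB, 1860 TPM in clone 2 and 3972 TPM in the RAC1-positive lines (-0.95, limma adjusted p = 0.641). Only RAC1 was called there. Batch 1 alone gave a median of -0.41 and batch 2 alone -0.28.

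**Figure D5:**
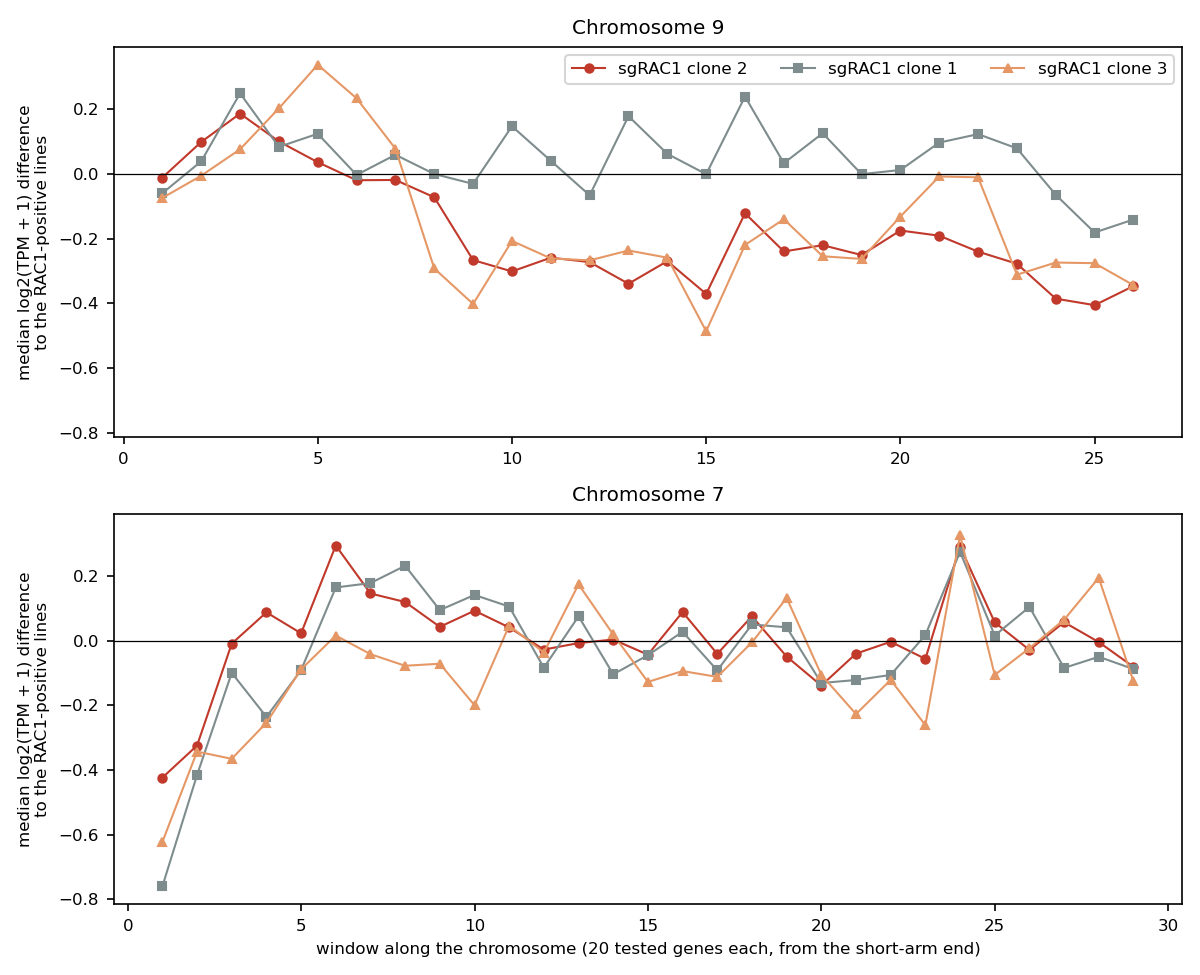
Median log2(TPM + 1) difference from the RAC1-positive lines in windows of 20 tested genes along chromosome 9 (upper panel) and chromosome 7 (lower panel), for sgRAC1 clone 2 (red), clone 1 (grey) and clone 3 (orange). On chromosome 9 clones 2 and 3 run below clone 1 from the ninth window on, with medians of -0.27 and -0.25 against 0.02; on chromosome 7 all 3 clones are low in the first 2 windows.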

How the data were processed

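RNA-seq libraries of 12 DU145 cultures started from 160 ng of RNA each and used SMARTScribe cDNA that was amplified and tagmented, per the labels' protocols. Software named in the submitters' processing notes is bcl2fastq, STAR 2.6.1d and DESeq2, with GRCh38 as the build. The counter, its annotation and its use of strand were not given in the sources used here. Overlapping, antisense or near-identical genes may therefore share reads. The authors deposited 1 table with a TPM value per gene and library, scaled to 1000000 per library, per the file headers. The same table holds the authors' own comparison of genotypes, with a mean signal, log2 fold change, score and p-values, per the file headers, which was not used.

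Differences were tested with limma 3.58.1 in R 4.3.3 on log2(TPM + 1), which understates changes near or below 1 TPM. All 12 libraries entered 1 fit with a mean per line, a variance trend and Benjamini-Hochberg adjustment over 17488 genes. A count test had been foreseen for counts, which the table does not hold. Whole reads were recovered from the steps of the TPM values (a whole-read length for 99.9% of genes above 0; 90.9% to 92.2% of single-exon values whole per library within 0.01 reads) and fitted with limma voom, at a minimum of 10 reads in all, as an alternative added after the data were seen. Lengths were chosen to make the reads whole, so the share of 99.9% is no check on them. The recovered length equalled the annotated one for 80.5% of 2802 single-exon genes. It did so for 86.8% of the 1158 of them above 0 in at least 6 libraries. Recovered depths are estimates. The script was tested on simulated data. Positions came from GENCODE release 29 by symbol or, for symbols not found there, by a synonym or from RefSeq, for 12318 genes.

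The clone, the 45 lists and 7 marker lists were chosen with earlier results of these data known, and the result of 1 gene list and 1 marker list is not reported here. Named genes were RAC1 and its relatives, the 12 called genes per direction with the largest difference and at least 5 TPM, and up to 4 called or else 2 members per list. Other called genes and those beyond all 10 libraries (8 per direction at most) were named after their values were seen. Replicate numbers mark a batch in the labels, and same-numbered deviations of 15 pairs of lines correlated at -0.13 to 0.30 (median 0.03, with 2 pairs over 0.1).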

Additional observations from a re-analysis of the deposited data

Results flagged for a closer look

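In 1 of 37 genes examined for a RAC1-positive library far from the other 5, RP11-443P15.2, parental replicate 1 stood at 3.33 TPM. The other RAC1-positive libraries ran from 1.19 to 1.95 TPM, and clone 2 had 11.98 and 9.70 TPM. Chance gives such a gap in about 1 of 20 groups.

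Against the other knockout clones, the fitted log2(TPM + 1) differences of clone 2 were 3.02 for MIR3149, 2.74 for RNU6-288P and 3.22 for RNU6ATAC18P (limma adjusted p = 0.0490 for each), higher in 2 of 2 clone 2 libraries. They rest on 1 or 2 recovered reads per clone 2 library and none elsewhere, so these values are no measure of the size of a difference.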

How the results depend on the processing

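The 34 genes called against the RAC1-positive lines became 21 with a replicate block, 10 with a pseudocount of 0.1, 11 with upper quartile scaling, 19 without the parental line, 19 without sgNTC clone 1 and 151 with limma voom on recovered reads (added after the data were seen). None were called with only the 8 libraries or with 1 value per line (0 in each case, against 1361 genes at an unadjusted limma p under 0.05 in the fit reported). Leaving out 1 library or line gave 12 to 200: 12 without sgNTC clone 1 replicate 1, 17 without either library of clone 3 or parental replicate 1, 18 without parental replicate 2, 20 without either library of clone 1, 21 without sgNTC clone 1 replicate 2, 167 without clone 2 replicate 1, 199 without its replicate 2 and 200 without sgNTC clone 2 replicate 2. Of the 34, 11 genes kept their call without any 1 library: RAC1, KYNU, SAT1, SCEL, SDR16C5, SERPINB5, SQRDL, TSPAN7, MIR3149, RNU6-288P and RNU6ATAC18P.

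The 3 calls against the other knockout clones became 0 with the replicate block, a pseudocount of 0.1, a filter of 5 TPM, 1 value per line or without any 1 RAC1-positive line, 1 with recovered reads, 5 with library weights and 23 with no filter. Without 1 library they ran from 0 to 178 (147 and 178 without clone 2 replicates 1 and 2, 5 without sgNTC clone 2 replicate 1). Against clone 3 alone, 0 as reported became 4 with a pseudocount of 5, 21 with no filter, 2 with library weights, 2 on recovered reads and 0 to 181 without 1 library (148 and 181 without clone 2 replicates 1 and 2). Genes passing both contrasts beyond all 10 libraries, 3 as reported, numbered 0 wherever those 3 calls became 0 and on recovered reads, 14 with no filter and 0 to 10 without 1 library (8 and 10 without clone 2 replicates 1 and 2).

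The RAC1 difference was -1.49 with upper quartile scaling and -1.58 with only the 8 libraries or 1 value per line, where it no longer passed, and -1.64 to -1.51 without 1 library. RHOG turned sign, to -0.028 without sgNTC clone 1 replicate 1, -0.029 without sgNTC clone 2 replicate 1, -0.021 without the line sgNTC clone 2 and -0.060 on recovered reads (-0.029 to 0.152 without 1 library). The chromosome 7 stretch had medians of -0.41 in batch 1 alone and -0.28 in batch 2 alone. The cause of these shifts was not tested. A test with median-of-ratios count models was not run. The table holds no counts, and the recovered reads were fitted with limma voom only, on median-of-ratios scaling. With 545153 recovered reads, sgNTC clone 2 replicate 1 limits low genes most.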

Other observations

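A few genes of the matrix and guidance lists lay close to the threshold in clone 2. LAMB1, a laminin chain of the basement membrane, was at 27.1 and 27.2 TPM in clone 2, 23.6 to 34.4 TPM in the other knockout clones and 9.86 to 14.7 TPM in the RAC1-positive libraries (difference 1.06 on the log2(TPM + 1) scale, limma adjusted p = 0.0715). On recovered reads LAMB1 passed, at 1.10 (limma adjusted p = 0.00106). SEMA3E, a secreted guidance cue, was at 0.340 and 0.0721 TPM in clone 2, no more than 0.7101 TPM in the other knockout clones and 1.46 to 6.15 TPM in the RAC1-positive libraries (-1.83, limma adjusted p = 0.0585), and passed on recovered reads (limma adjusted p = 0.00443). In both genes all 3 knockout clones lay on 1 side of every RAC1-positive library.

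Metabolic and Notch readouts gave values without a call. LDHA, lactate dehydrogenase of glycolysis, was at 1040.3 and 1014 TPM in clone 2 and 642 to 884 TPM in the RAC1-positive libraries (0.40, limma adjusted p = 0.243). HES1, a Notch-induced repressor, was at 12.8 and 17.7 TPM in clone 2 and 4.07 to 9.06 TPM in the RAC1-positive libraries (1.20, limma adjusted p = 0.262), although its list had a median of -0.22.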
